A study of Arabidopsis thaliana with 12 samples.

Results

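Meiosis genes of Arabidopsis thaliana were followed in floral buds and open flowers of plants with a disrupted ASK1 gene and of 2 kinds of control plant. The set holds 44 loci, chosen by gene identifier for known roles in meiotic cohesion, the chromosome axis and synapsis, double-strand breaks, recombination, crossover formation and division control. All 44 were among the 33602 genes of the count tables, and all 44 were among the 21890 genes that passed the filter on low counts. The rule of membership uses no measured value, but the loci were chosen with earlier results of these data known.

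Total RNA from primary inflorescences was sequenced as 150-nt read pairs, with 2 libraries for each of 6 groups. The ask1 groups carried a Ds transposon insertion in ASK1, the ASK1 WT groups carried the wild-type ASK1 allele, and the Col-0 groups were the standard laboratory accession; the strain of every library was given as Col-0. Each genotype was sampled as floral buds and as open flowers, 10 to 50 mg per sample, 5 h after dawn, from plants grown in 16 h of light at 21 °C and 8 h of dark at 19 °C. The labels do not say whether the 2 libraries of a group came from separate plants, so the p-values below measure only the spread between these samples, which may be technical.

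Meiosis turns a diploid cell into haploid spores through one round of DNA replication and a pair of divisions. Sister chromatids are held by cohesin on a protein axis. Homologous chromosomes are cut by the SPO11 complex, repaired from each other by recombinases such as DMC1, and linked by crossovers before they separate. In a flower this happens in a small number of cells, the pollen mother cells of young anthers and the single megaspore mother cell of each ovule, and only in closed buds for the male side. ASK1 resembles yeast SKP1 and links F-box proteins to the cullin of SCF ligases, which tag proteins for degradation, and earlier work on Arabidopsis described failed homologue separation in male meiosis of ask1 mutants. In whole buds or flowers, fewer meiotic cells and less RNA per cell cannot be told apart.

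Library totals ranged from 13780265 to 23426466 counts, and all levels are given as CPM, the counts of a gene relative to a library total made comparable by trimmed-mean scaling (TMM). The meiosis genes are weakly represented in such tissue: the median member had 69 to 110 counts in a bud library and 49 to 77 in an open-flower library, and 5 to 11 members had fewer than 10 counts in an open-flower library. ASK1 itself was read at 10.1 and 29.1 CPM in ask1 buds, at 50.9 and 29.6 CPM in ask1 open flowers, and at 247 to 310 CPM in the control libraries. One library stood apart: in ask1 open-flower library 1 the level of a gene relative to the controls fell with its exon length, with a rank correlation across genes of -0.467, against -0.0724 to 0.0753 in the other 11 libraries. Genes are not independent replicates. In comparisons that include this library, counts of member calls and the calls it decided among the members named are also given without it. A fit without 1 library of a group leaves 1 library there, and its spread is then taken from the other groups. Calls for ask1 open flowers from such a fit describe that 1 library only.

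The promoter windows of 5 of the 6 members that passed one way against each of the 2 controls, in buds or in open flowers, are shown because those genes carry the genotype results. Each window is the 250 bases before the annotated gene start, read from the RefSeq TAIR10.1 assembly in the direction of the gene, and bases annotated as untranslated region of a neighbouring gene were left out. Capitals mark matches, on either strand, to an E2F core (the letters TTCCCGC, the variant TTGGCGC, the variant TTCGCGC or the variant TTGCCGC), the type of site found before genes of the DNA synthesis phase, or to the core of the mitosis-specific activator element (MSA, AACGG), found before genes of late cell-cycle stages; no E2F core contains the MSA core.
SYN1: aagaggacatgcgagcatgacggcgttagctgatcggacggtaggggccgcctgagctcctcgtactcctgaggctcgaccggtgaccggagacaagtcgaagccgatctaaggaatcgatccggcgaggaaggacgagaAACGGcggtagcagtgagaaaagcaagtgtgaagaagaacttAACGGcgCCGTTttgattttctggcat
ASY1: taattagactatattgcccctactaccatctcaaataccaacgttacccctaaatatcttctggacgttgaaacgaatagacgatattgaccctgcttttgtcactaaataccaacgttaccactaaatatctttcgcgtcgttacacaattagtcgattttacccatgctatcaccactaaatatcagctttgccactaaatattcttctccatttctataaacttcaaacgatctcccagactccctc
ASY3: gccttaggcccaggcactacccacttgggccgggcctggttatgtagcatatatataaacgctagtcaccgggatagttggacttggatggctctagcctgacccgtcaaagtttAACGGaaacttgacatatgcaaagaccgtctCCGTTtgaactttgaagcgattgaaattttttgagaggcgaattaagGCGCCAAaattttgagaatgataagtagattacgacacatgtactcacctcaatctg
SDS: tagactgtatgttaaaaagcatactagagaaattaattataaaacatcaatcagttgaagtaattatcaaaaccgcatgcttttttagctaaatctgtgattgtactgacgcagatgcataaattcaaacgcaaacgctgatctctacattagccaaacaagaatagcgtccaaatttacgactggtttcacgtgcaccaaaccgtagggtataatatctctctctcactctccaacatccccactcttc
JASON: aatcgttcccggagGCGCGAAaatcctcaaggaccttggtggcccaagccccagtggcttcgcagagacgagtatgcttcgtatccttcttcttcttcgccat

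The SYN1 sequence lies on the plus strand at chr5:1623956-1624164 and falls inside the coding sequence of the divergent gene AT5G05480. The ASY1 sequence (chr1:25243838-25244087), the ASY3 sequence (chr2:19304272-19304521) and the SDS sequence (chr1:5082537-5082786) are on the minus strand, and the ASY3 window lies in the exon of the antisense noncoding gene AT2G09770. The JASON sequence (chr1:2040567-2040669), on the minus strand, is coding sequence of the divergent gene AT1G06670. SYN1 holds 3 MSA cores, ASY3 holds 1 E2F core and 2 MSA cores, JASON holds 1 E2F core, and ASY1 and SDS hold neither set of letters in this window. Over all members, 7 of 44 windows (15.9%) held an E2F core, against 795 of 27438 protein-coding genes (2.9%). An MSA core was in 19 of 44 member windows (43.2%) and in 5645 of all windows (20.6%). By role, 4 of 5 cohesin genes had an MSA core, and of the 10 crossover genes 2 had an MSA core and 0 an E2F core. A match is a description of the letters and says nothing of a factor's binding.

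Levels of different genes were compared as CPM per kb of exon. In Col-0 buds the lowest of the 44 genes was SPO11-2, at 0.185 CPM per kb. Among the higher genes PANS1 had 11.9, SGO2 9.87 and DMC1 9.85 CPM per kb. SYN1 stood at rank 22 with 2.67 CPM per kb. Several genes with meiosis-specific roles were low: MS5 had 1.22, ASY1 1.1, SPO11-1 0.832, MSH4 0.555 and MMD1 0.528 CPM per kb.

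In buds SYN1 was the one member that fell in ask1 against both controls. A gene passed here when its Benjamini-Hochberg adjusted p, over all 21890 genes of one edgeR quasi-likelihood fit, was under 0.05, and rose or fell is written only of genes that passed. Against ASK1 WT, 0 of 44 members rose and 2 fell, where 8.84% of all tested genes rose and 17.0% fell; the median log2 fold change was -0.10 over the members and -0.05 over all tested genes. Against Col-0, 0 rose and 1 fell, where 7.04% of all tested genes rose and 14.1% fell, with medians of 0.06 and -0.05. Both comparisons use the same ask1 libraries. The share of members called was below that of all genes in both, at the low counts given above. SYN1 fell against both controls, where 12.6% of all tested genes did, and 0 members rose against both, where 5.62% did. Without ask1 open-flower library 1, which enters the bud results only through the pooled spread, 4 members fell against ASK1 WT, where 21.7% of all genes did, and 2 rose and 1 fell against Col-0, where 18.1% and 19.2% did. SDS (-0.67, edgeR, adjusted p = 0.034) and MMD1 (-1.66, adjusted p = 0.0434) were the added falls, and RAD51C (0.45, adjusted p = 0.0392) was among the rises.

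SYN1 encodes the meiotic cohesin subunit of the REC8 type, which holds sister chromatids together through the first division. It lies at chr5:1624206-1629269 on the plus strand. Its bud level was 1.09 and 1.63 CPM in the ask1 libraries, 6.04 and 5.69 CPM in ASK1 WT, and 5.16 and 7.11 CPM in Col-0. Both ask1 libraries lay far below all 4 control libraries, and the raw counts behind them were 20 and 24, against 92 to 127 in the controls. The log2 fold change was -2.12 ± 0.34 (SE) against ASK1 WT and -2.19 ± 0.34 against Col-0 (edgeR, Benjamini-Hochberg adjusted p = 0.000963 and 0.000958, n = 2 per group). In open flowers SYN1 was low in every genotype, at 0.514 and 0.589 CPM in ask1, 0.54 and 1.22 in ASK1 WT, and 1.03 and 0.867 in Col-0, and ask1 overlapped with ASK1 WT. SYN1 shares 65 exon bases with AT5G05480 on the opposite strand, and the counting strand is not given in the sources used here, so reads from that stretch cannot be assigned to one gene.

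**Figure D1:**
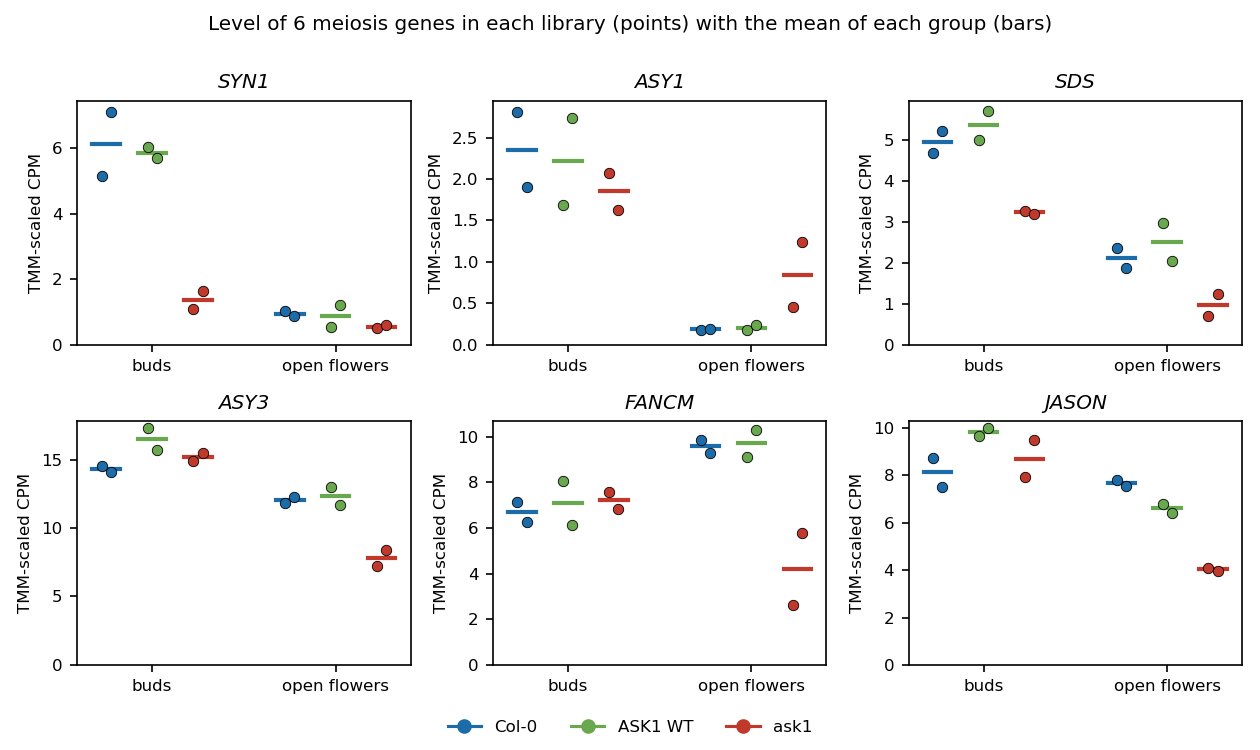
Level of SYN1, ASY1, SDS, ASY3, FANCM and JASON in TMM-scaled CPM (vertical axes, from 0) for buds and open flowers; points are libraries, horizontal bars are means of the 2 libraries, colours are Col-0, ASK1 WT and ask1. In ask1 buds SYN1, at 1.09 and 1.63 CPM, sits below all 4 control libraries. SDS does too, at 3.27 and 3.18 CPM, though it did not pass there. The 5 genes other than SYN1 separate in open flowers.

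The rest of the cohesin group did not pass in buds. SWI1, needed for sister cohesion and entry into meiosis, had log2 fold changes of 0.22 against ASK1 WT and 0.62 against Col-0. The shugoshins SGO1 and SGO2, which shield centromeric cohesin, are paralogs that share no identical 100-bp stretch of exon. SGO1 was at 9.55 and 10 CPM in ask1 buds, 11.2 and 11 in ASK1 WT and 10.9 and 11.4 in Col-0, so that both ask1 libraries were just under the controls; its log2 fold changes were -0.18 and -0.19. SGO2 was at 20.5 and 19.2 CPM in ask1 buds, 18.8 and 19.7 in ASK1 WT and 22 and 19.6 in Col-0, and the genotypes overlapped. PANS1, which guards cohesion between the divisions, was at 18.9 and 21.5 CPM in ask1 buds and between 20.2 and 22.9 CPM in the controls.

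Among the axis and synapsis genes, ZYP1a fell against ASK1 WT alone. ZYP1a and ZYP1b encode the transverse filament of the synaptonemal complex and share 10 identical 100-bp windows, 0.335% of those of ZYP1a, so few reads could be split between them. ZYP1a was at 4.04 and 3.25 CPM in ask1 buds, 6.3 and 7.91 in ASK1 WT, and 4.99 and 4.59 in Col-0. The ask1 libraries were lowest, and ASK1 WT was above Col-0. edgeR gave a log2 fold change of -0.96 ± 0.21 against ASK1 WT (edgeR, adjusted p = 0.00699) and -0.39 ± 0.22 against Col-0 (adjusted p = 0.246); the first was lost without ask1 bud library 2 or ASK1 WT bud library 2. ZYP1b was at 4.85 and 4.67 CPM in ask1 buds, 5.06 and 6.72 in ASK1 WT and 5.89 and 6.16 in Col-0. Its log2 fold changes were -0.31 and -0.34 and did not pass. ASY1, the HORMA protein of the axis, and its partner ASY3 overlapped between genotypes in buds, at 1.63 to 2.81 and 14.1 to 17.3 CPM. AT4G24710, which RefSeq annotates as a pachytene checkpoint-like protein, had log2 fold changes of -0.08 and 0.06.

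Of the 6 genes of break formation, 9 of break processing and strand exchange, and 10 of crossover formation, 0 passed in buds against either control. Against ASK1 WT the log2 fold changes ran from -0.85 (DFO) to 0.44 (SPO11-2) in the first group, down to -0.73 (SDS) in the second and from -0.27 (MSH5) to 0.33 (MSH4) in the third. Against Col-0 they ran from -0.71 to 1.20, from -0.61 to 0.39 and from -0.41 to 0.57. SPO11-1 and SPO11-2 form the topoisomerase-like pair that cuts DNA. SPO11-1 was at 0.873 and 0.542 CPM in ask1 buds, 0.779 and 0.776 in ASK1 WT, and 0.842 and 1.51 in Col-0. SPO11-2 was at 0.927 and 0.474 CPM in ask1 buds, 0.714 and 0.362 in ASK1 WT, and 0.337 and 0.28 in Col-0. With 5 to 27 counts per bud library, only large changes of either gene were detectable at this depth. DMC1, the meiosis-specific recombinase, was at 17.3 and 17.5 CPM in ask1 buds, 18.3 and 18 in ASK1 WT and 16.2 and 14.4 in Col-0. The genotypes lay close together, with log2 fold changes of -0.06 ± 0.22 and 0.19 ± 0.22. MSH4, a MutS homologue that stabilises crossover intermediates, was at 2.13 and 1.42 CPM in ask1 buds, 1.23 and 1.6 in ASK1 WT and 1.68 and 1.18 in Col-0, and the groups overlapped. SDS, a cyclin-like protein that DMC1-dependent repair needs, was at 3.27 and 3.18 CPM in ask1 buds, 5 and 5.69 in ASK1 WT, and 4.66 and 5.21 in Col-0. Both ask1 libraries of SDS were below all 4 controls, with log2 fold changes of -0.73 and -0.61 that did not pass.

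The 7 division-control genes also gave 0 calls in buds. TAM, an A-type cyclin, and OSD1, an inhibitor of the anaphase-promoting complex, both carry meiotic cells from the first division into the second. TAM was at 3.87 and 4.4 CPM in ask1 buds, 4.48 and 5.07 in ASK1 WT and 4.66 and 4.26 in Col-0. OSD1 was at 13.8 and 10.5 CPM in ask1 buds, 7.98 and 11.1 in ASK1 WT, and 11.1 and 9.97 in Col-0. The genotypes overlapped for both genes. MS5, which ends meiosis after the second division, was at 0.927 and 1.15 CPM in ask1 buds, 1.56 and 2.17 in ASK1 WT, and 1.8 and 1.51 in Col-0. MMD1, a PHD-finger protein of male meiotic chromosome organisation, was at 0.655 and 0.542 CPM in ask1 buds, 1.56 and 2.38 in ASK1 WT, and 1.57 and 1.06 in Col-0. For both, the ask1 libraries were below every control library, and log2 fold changes of -0.86 and -0.68 for MS5 and of -1.71 and -1.12 for MMD1 did not pass.

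**Figure D2:**
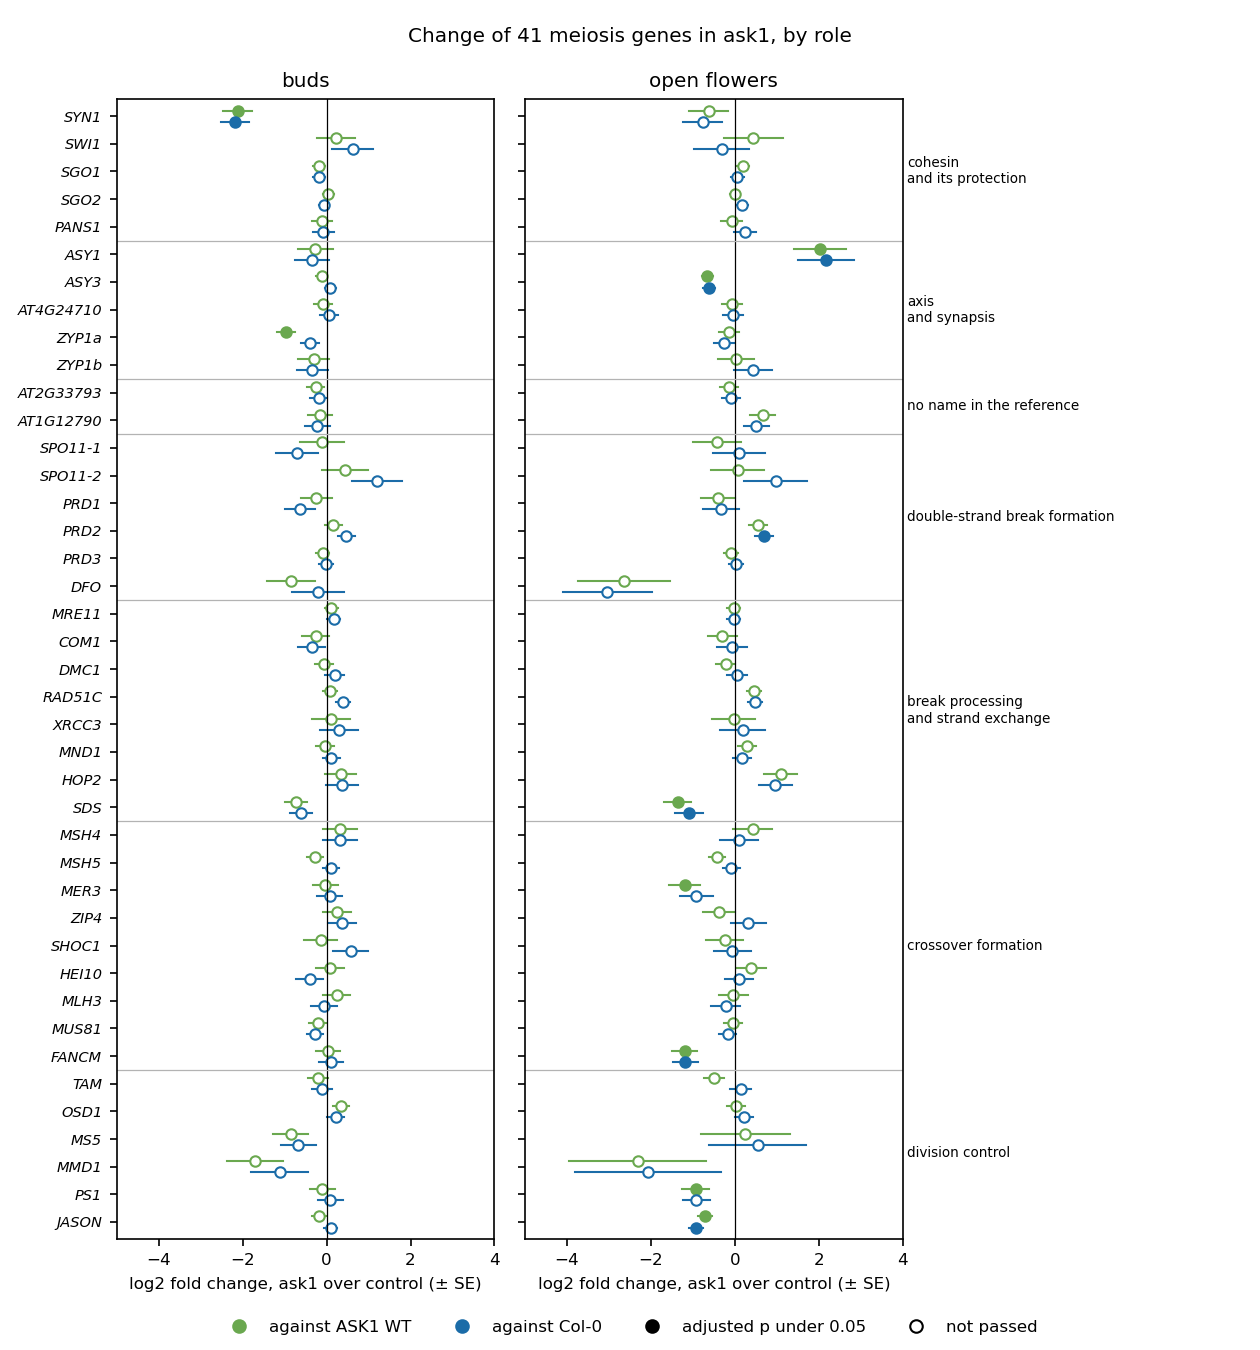
log2 fold change of ask1 over ASK1 WT (green) and over Col-0 (blue) for 41 of the 44 genes, grouped by role, in buds and in open flowers; bars are ± SE and filled points passed at an adjusted p of 0.05. In buds 1 gene is filled in both colours, and in open flowers 5 are.

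Counting libraries without a test, 8 members had both ask1 bud libraries below all 4 control bud libraries, where 32.1% of all tested genes did: SYN1, SGO1, ZYP1a, ZYP1b, SDS, MS5, MMD1 and AT2G33793. For 2 members, MRE11 among them, both ask1 libraries were above all controls, where 22.5% of tested genes were. Both shares of members were under the share of all genes. AT2G33793 and AT1G12790 carry no gene name in the reference used here and did not pass in buds.

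Markers of other cell types were read in the same bud libraries. The tapetum is the anther layer that feeds the pollen mother cells. The 8 genes listed as its markers summed to 446 to 506 CPM in ask1 buds and to 578 to 706 CPM in control buds. None of the 8 was at 0 counts, and 1 of 8 fell against each control. The gene that fell was CALS5, a callose synthase, at 13.2 and 23.2 CPM in ask1 buds and 171 to 179 CPM in control buds. CALS5 did not follow the rest of the list. In control open flowers it was at 40.5 to 48.2 CPM, where the other 7 summed to 0.117 to 0.434 CPM. Without CALS5 the other 7 summed to 423 to 492 CPM in ask1 and 407 to 526 CPM in controls, which overlap. The 8 mature-pollen markers summed to 55.4 to 147 CPM in ask1 buds and 1510 to 1770 CPM in control buds, and 7 of 8 fell against each control. Over all tested genes 17.0% fell against ASK1 WT and 14.1% against Col-0, and 8.84% and 7.04% rose. The 8 mitotic markers (288 to 328 CPM) and the 4 ovule markers (115 to 128 CPM) had overlapping sums between genotypes. Among the mitotic markers 1 fell against ASK1 WT. Of the ovule markers BEL1 rose against each control, at 26.7 and 24.9 CPM in ask1 and 15.8 to 19.1 CPM in controls. The 5 floral organ identity genes summed to 854 to 869 CPM in ask1 and 877 to 925 CPM in controls. Of these, 2 fell against ASK1 WT and 1 against Col-0. AP3 and PI were below every control, and AP1, AG and SEP3 above. The part of these shifts in the SYN1 result was not tested.

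The calls in open flowers were spread over roles. Against ASK1 WT, 1 of 44 rose and 6 fell, where 14.1% of all tested genes rose and 15.9% fell, with a median log2 fold change of -0.08 over members and 0.01 over all genes. Against Col-0, 2 rose and 4 fell, where 12.9% rose and 14.3% fell, with medians of -0.02 and 0.01. Against both controls ASY1 rose, where 10.5% of all genes did, and ASY3, SDS, FANCM and JASON fell, where 12.8% did. All of these shares of members were below the background. Without ask1 open-flower library 1, 3 rose and 7 fell against ASK1 WT, where 12.2% and 20.7% of all genes did. RAD51C and AT1G12790 then joined ASY1 as higher, PANS1 and DMC1 joined the falls, and MER3 left them. Against Col-0, 4 rose and 3 fell without it, where 10.6% and 19.0% did; RAD51C, AT1G12790 and ZYP1b were added as higher, and PRD2 and SDS no longer passed. In fits of only the libraries compared, 0 members passed in open flowers against either control, where 10.4% and 8.18% of all genes were called, and 4 and 1 passed in buds, where 36.8% and 30.6% were.

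ASY1 lies at chr1:25239117-25243837 on the minus strand and shares 214 exon bases with an opposite-strand gene. Its open-flower level was 0.45 and 1.24 CPM in ask1, 0.18 and 0.233 CPM in ASK1 WT, and 0.182 and 0.186 CPM in Col-0. The ask1 libraries were above all controls but far apart, and they rest on 7 and 21 counts against 3 or 4 counts in each control library. On the log2 scale the difference was 2.03 ± 0.62 against ASK1 WT and 2.17 ± 0.66 against Col-0 (edgeR, adjusted p = 0.0313 and 0.0337). Without ask1 open-flower library 1 it was 2.51 and 2.65 for ASY1 and passed (edgeR, adjusted p = 0.00588 and 0.0067). Without library 2 it was 1.11 and 1.26 and did not pass (adjusted p = 0.247 and 0.216), nor did it pass when any 1 of the 4 control open-flower libraries was left out, with adjusted p from 0.0577 to 0.199.

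ASY3 lies at chr2:19299492-19304271 on the minus strand. It was at 7.26 and 8.36 CPM in ask1 open flowers, 13 and 11.7 CPM in ASK1 WT, and 11.8 and 12.3 CPM in Col-0. Both ask1 libraries were below every control. The log2 fold change was -0.66 ± 0.14 and -0.62 ± 0.14 (edgeR, adjusted p = 0.00454 and 0.00774), and -0.62 and -0.58 without ask1 library 1 (adjusted p = 0.00686 and 0.0114). With the trend of each library on exon length removed, the ASY3 difference was -0.27 and -0.24 and did not pass (adjusted p = 0.245 and 0.335); its exons span 3872 bases. ASY3 was at 14.9 and 15.5 CPM in ask1 buds, 17.3 and 15.7 in ASK1 WT and 14.5 and 14.1 in Col-0.

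SDS lies at chr1:5079226-5082536 on the minus strand and overlaps no annotated gene. It was at 0.707 and 1.24 CPM in ask1 open flowers, 2.97 and 2.04 CPM in ASK1 WT, and 2.36 and 1.86 CPM in Col-0. Both ask1 libraries were below every control, as they were in buds. edgeR gave a log2 fold change of -1.36 ± 0.32 against ASK1 WT and -1.10 ± 0.33 against Col-0 (edgeR, adjusted p = 0.00931 and 0.0321). Without ask1 library 1, SDS had -1.08 (adjusted p = 0.0339) and -0.83 (adjusted p = 0.116). The SDS call against ASK1 WT was also lost without ASK1 WT open-flower library 1 (adjusted p = 0.0832), and that against Col-0 without Col-0 open-flower library 1 (adjusted p = 0.151) or library 2 (adjusted p = 0.0563).

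FANCM, a helicase that limits crossovers, lies at chr1:13089816-13097286 on the plus strand and overlaps no annotated gene. Its open-flower level was 2.63 and 5.77 CPM in ask1, 9.13 and 10.3 CPM in ASK1 WT, and 9.87 and 9.29 CPM in Col-0. In buds FANCM was at 7.58 and 6.84 CPM in ask1, 8.05 and 6.15 CPM in ASK1 WT, and 7.13 and 6.27 CPM in Col-0. The genotypes overlapped in buds. In open flowers both ask1 libraries were lower than every control, and they differed from each other by more than the controls did. On the log2 scale the difference was -1.20 ± 0.29 and -1.18 ± 0.29 (edgeR, adjusted p = 0.0107 and 0.014). Without ask1 library 1, FANCM had -0.80 and -0.79 (adjusted p = 0.0115 and 0.0146), and without library 2 it had -1.88 and -1.86. The FANCM call was lost without ASK1 WT open-flower library 2 against ASK1 WT (adjusted p = 0.0562) and without Col-0 open-flower library 1 or 2 against Col-0 (adjusted p = 0.065 and 0.0503). MER3, the crossover helicase, fell against ASK1 WT only (log2 fold change -1.20 ± 0.38, edgeR, adjusted p = 0.0342), and without ask1 library 1 the MER3 value was -0.77 (adjusted p = 0.135). It was also lost with the length trend removed (-0.84, adjusted p = 0.0604), with only the libraries compared (adjusted p = 0.175), and without either ASK1 WT open-flower library or either Col-0 bud library (adjusted p from 0.0514 to 0.113).

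JASON, needed for spindle orientation in the second male division, lies at chr1:2037311-2040419 on the minus strand and shares 66 exon bases with opposite-strand genes. It was at 4.11 and 3.95 CPM in ask1 open flowers, 6.79 and 6.42 CPM in ASK1 WT, and 7.81 and 7.55 CPM in Col-0. In buds JASON was at 7.91 and 9.48 CPM in ask1, 9.67 and 9.98 CPM in ASK1 WT, and 8.75 and 7.5 CPM in Col-0. In open flowers the 3 genotypes did not overlap, and in buds ask1 overlapped with Col-0. The log2 fold change was -0.71 ± 0.17 and -0.93 ± 0.17 (edgeR, adjusted p = 0.0106 and 0.00302), and -0.80 and -1.02 for JASON without ask1 library 1 (adjusted p = 0.0121 and 0.00305). With only the libraries compared both JASON calls were lost (adjusted p = 0.111 and 0.0715). PS1, which acts in the same division, was at 5.2 and 13.8 CPM in ask1, 18.1 and 18.4 CPM in ASK1 WT and 18.3 and 17.8 CPM in Col-0. The PS1 fall of -0.93 ± 0.32 passed against ASK1 WT only (edgeR, adjusted p = 0.0472) and was -0.45 without ask1 library 1 (adjusted p = 0.0413). Leaving out any 1 of the other libraries except ask1 open-flower library 2 ended the PS1 call, with adjusted p from 0.0615 to 0.14.

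PRD2, which the cutting complex needs, was at 4.69 and 5.18 CPM in ask1, 3.82 and 2.86 in ASK1 WT and 3.09 and 3.03 in Col-0. Its rise of 0.69 ± 0.22 against Col-0 passed (edgeR, adjusted p = 0.0409), and did not pass when any 1 of the 12 libraries was left out, with adjusted p from 0.0544 to 0.23. DMC1 was at 13.5 and 7.6 CPM in ask1 open flowers, 10.6 and 14 in ASK1 WT, and 10.1 and 10.1 in Col-0, and the groups overlapped. Its log2 fold change was -0.22 against ASK1 WT and 0.06 against Col-0 (edgeR, adjusted p = 0.49 and 0.883). With ask1 library 1 left out DMC1 had -0.74, which passed as lower against ASK1 WT (adjusted p = 0.0063), and -0.47 against Col-0, which did not (adjusted p = 0.0708). SPO11-1 was at 0.45 and 0.471 CPM in ask1, 0.855 and 0.35 in ASK1 WT and 0.303 and 0.557 in Col-0. SPO11-2 was at 0.257 and 0.471 CPM in ask1, 0.45 and 0.233 in ASK1 WT and 0.242 and 0.124 in Col-0. The ask1 values of both lay among the controls or at their upper edge, at 4 to 8 counts per ask1 library. MSH4 was at 0.964 and 1.06 CPM in ask1, 0.45 and 1.11 in ASK1 WT and 0.908 and 0.991 in Col-0. TAM was at 2.76 and 3.95 CPM in ask1, 4.18 and 5.31 in ASK1 WT and 3.45 and 2.66 in Col-0. OSD1 was at 6.55 and 6.95 CPM in ask1, 7.2 and 6.07 in ASK1 WT and 5.75 and 5.94 in Col-0. For MSH4, TAM and OSD1 the ask1 libraries overlapped with the controls, and 0 of the 3 passed.

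The paralogous pairs gave no call in open flowers. ZYP1a was at 2.18 and 2.65 CPM in ask1, 2.79 and 2.51 in ASK1 WT and 2.79 and 3.03 in Col-0. ZYP1b was at 0.964 and 3.47 CPM in ask1, 2.07 and 2.33 in ASK1 WT and 1.7 and 1.61 in Col-0. The 2 ask1 libraries of ZYP1b lay on either side of all controls. SGO1 was at 8.42 and 10.1 CPM in ask1, 7.96 and 8.22 in ASK1 WT and 8.42 and 9.35 in Col-0. SGO2 was at 23.1 and 22.7 CPM in ask1, 24.1 and 21.5 in ASK1 WT and 21.3 and 19.2 in Col-0. Both shugoshins overlapped between genotypes. Over the roles, log2 fold changes against ASK1 WT ran from -2.64 (DFO) to 0.55 (PRD2) for break formation, from -1.36 (SDS) to 1.10 (HOP2) for break processing and strand exchange, and from -1.20 (FANCM) to 0.42 (MSH4) for crossover formation. Of the genes without a name in the reference, AT2G33793 had -0.15 and -0.09 and AT1G12790 0.66 and 0.51, and neither passed. Without ask1 open-flower library 1, AT1G12790 had 0.97 and 0.80, values that rest on library 2 alone. AT1G12790 was at 3.92 CPM in ask1 library 1, 7.01 CPM in library 2 and 3.22 to 4.48 CPM in the controls.

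Both ask1 open-flower libraries lay above all 4 controls for 4 members, HOP2, ASY1, RAD51C and PRD2, where 25.2% of all tested genes did, and below all 4 for 7 members, SDS, MER3, FANCM, ASY3, JASON, PS1 and DFO, where 24.5% did. HOP2, a cofactor of the recombinases, was at 5.46 and 3.65 CPM in ask1 and 1.63 to 2.91 CPM in controls and did not pass. DFO, an accessory gene of break formation, had 1 count in ask1 open flowers over both libraries and 9 in ASK1 WT, a ratio of 7.44 with a 95% counting interval from 1.03 to 326. Such intervals cover counting error only.

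The length pattern of ask1 open-flower library 1 was visible within the meiosis genes. Over the 33 members with at least 10 counts in the pair of libraries, the log2 ratio of library 1 to library 2 had a Spearman correlation of -0.588 with exon length, as a description of 1 pair of libraries. Of 9 measured members among the 11 longest (2991 to 4914 bases), 8 were lower in library 1, with a median log2 ratio of -0.98. Of 7 measured members among the 11 shortest (1020 to 1671 bases), 4 were lower, with a median of -0.09. The correlation was 0.116 in ASK1 WT open flowers and -0.355 in Col-0 open flowers, where the longest members had medians of 0.15 and 0.04. FANCM and ZYP1b are long members that were lower in library 1. PANS1, at 1785 bases, was higher in library 1, at 19.9 against 9.95 CPM. The part of this pattern in the ask1 falls was not tested beyond the values without library 1 and without the length trend.

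**Figure D3:**
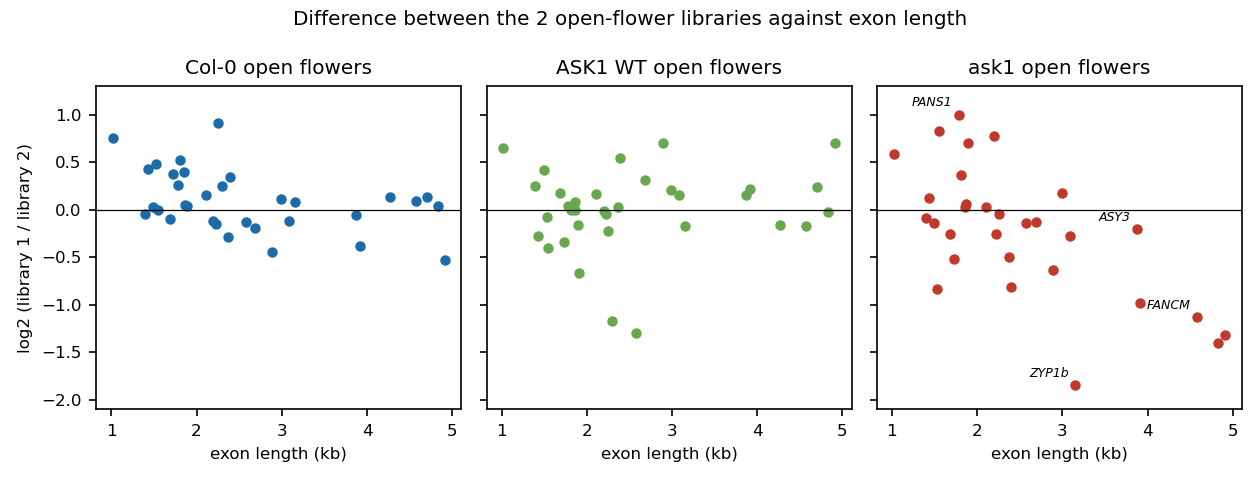
log2 ratio of open-flower library 1 to library 2 (vertical axis) against exon length in kb (horizontal axis) for members described here with at least 10 counts, 1 panel per genotype, 1 point per gene. In ask1 the longest members, counting those not drawn, have a median of -0.98, against 0.15 in ASK1 WT and 0.04 in Col-0.

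Marker lists moved in open flowers as well. The 8 mitotic markers summed to 133 to 184 CPM in ask1 open flowers and 224 to 269 CPM in controls, and 4 of 8 fell against each control. Over all tested genes 15.9% fell against ASK1 WT and 14.3% against Col-0. Marker calls are given only with ask1 open-flower library 1 in the fit. The 8 genes listed as tapetum markers summed to 4.37 to 13.4 CPM in ask1 and 40.7 to 48.7 CPM in controls. Of these, 3 of 8 were at 0 counts in each of ask1 and ASK1 WT, and 2 in Col-0. Against each control 1 of 8, CALS5, fell. CALS5 made up nearly all of these sums, at 4.05 and 13.1 CPM in ask1 and 40.5 to 48.2 CPM in controls, and the other 7 summed to 0.236 to 0.321 and 0.117 to 0.434 CPM. The 8 mature-pollen markers summed to 470 to 494 CPM in ask1 and 3800 to 4710 CPM in controls, and 7 of 8 fell. The 4 ovule markers summed to 148 to 173 CPM in ask1 and 163 to 175 CPM in controls, and the 5 floral organ identity genes to 606 to 808 and 541 to 602 CPM. Of the ovule markers BEL1 rose against each control, at 30.8 and 41.9 CPM in ask1 and 19 to 25.9 CPM in controls. Of the floral organ identity genes 2 rose against ASK1 WT and 1 against Col-0. Over all tested genes 14.1% and 12.9% rose. Their part in the member results was not tested.

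Between tissues the set moved mostly downward. From buds to open flowers, 0 of 44 members rose in any genotype, while 11 fell in Col-0, 15 in ASK1 WT and 15 in ask1. The background for a fall was 17.1% of tested genes in Col-0, 16.9% in ASK1 WT and 15.5% in ask1, and for a rise 18.8%, 18.4% and 22.2%. The median log2 fold change of the members was -0.57, -0.53 and -0.65, against -0.03, -0.02 and 0.05 over all tested genes, and 40, 41 and 41 of 44 were below 0. The share of members that fell was above the background in each genotype, and the share that rose below it. Without Col-0 open-flower library 2, 3 of 44 fell in Col-0 (6.82%), under the 10.4% of all genes in that fit, and without library 1, 5 did (11.4%, against 10.4%). In ask1, 12 fell and 0 rose without its open-flower library 1 (27.3% fell; of all genes 40.7% were called in that fit, 20.6% as higher). The ask1 falls of SYN1, SWI1, MRE11 and ZIP4 were among those then lost, and PANS1 and AT4G24710 were added as lower. Both open-flower libraries were below both bud libraries for 34 members in Col-0, 34 in ASK1 WT and 32 in ask1, where 39.7%, 39.6% and 27.6% of all tested genes were. The reverse held for 2 members in Col-0 (FANCM among them), 3 in ASK1 WT (SGO2 and FANCM among them) and 1 in ask1 (SGO2), where 36.5%, 37.9% and 33.9% of all tested genes were higher.

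MS5 fell furthest in the controls. In Col-0 it went from 1.8 and 1.51 CPM in buds to 0 and 0.124 CPM in open flowers, in ASK1 WT from 1.56 and 2.17 to 0.045 and 0.117 CPM, and in ask1 from 0.927 and 1.15 to 0.128 and 0.0589 CPM. The bud and open-flower libraries were far apart in every genotype, and MS5 passed in each (edgeR, adjusted p = 0.000331, 0.000207 and 0.00273). Open flowers of Col-0 held 2 MS5 counts against 59 in buds, a ratio of 27 with a 95% counting interval from 7.15 to 228; the ratios were 24.9 (8.17 to 124) in ASK1 WT and 11.1 (3.5 to 56.7) in ask1. MS5 shares 457 exon bases with an opposite-strand gene. MMD1 went from 1.57 and 1.06 CPM to 0.0605 and 0.248 CPM in Col-0, from 1.56 and 2.38 to 0 and 0.408 CPM in ASK1 WT, and from 0.655 and 0.542 to 0.0642 and 0 CPM in ask1. Every MMD1 bud library was above every open-flower library. Its log2 fold change was -3.05 ± 0.88 in Col-0 and -3.39 ± 0.78 in ASK1 WT (edgeR, adjusted p = 0.0188 and 0.0058). In ask1 it rested on 1 count in open flowers against 20 in buds, a ratio of 19.7 with an interval from 3.15 to 815 (adjusted p = 0.0364). The Col-0 call of MMD1 was lost without Col-0 bud library 1 or either Col-0 open-flower library, with adjusted p from 0.0507 to 0.152. The ask1 call of MMD1 was lost without either ask1 bud library, ask1 open-flower library 2, ASK1 WT bud library 2 or Col-0 bud library 1 (adjusted p from 0.0502 to 0.121).

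ASY1 and SYN1 fell deeply in both controls. ASY1 went from 2.81 and 1.9 CPM in Col-0 buds to 0.182 and 0.186 CPM in open flowers, and from 1.69 and 2.74 to 0.18 and 0.233 CPM in ASK1 WT. edgeR gave a log2 fold change of -3.63 ± 0.58 and -3.41 ± 0.55 (edgeR, adjusted p = 0.000539 and 0.000598). In ask1 ASY1 went from 2.07 and 1.63 CPM to 0.45 and 1.24 CPM, a change of -1.12 that did not pass (adjusted p = 0.079). It was -0.63 without ask1 open-flower library 1 (adjusted p = 0.299) and -2.03 without library 2, where ASY1 passed as lower (adjusted p = 0.00819). SYN1 changed by -2.68 ± 0.36 in Col-0 and -2.77 ± 0.36 in ASK1 WT (edgeR, adjusted p = 0.000148 and 0.000125). In ask1 SYN1 changed by -1.27 ± 0.45 from its already low bud level (adjusted p = 0.0453) and by -1.22 without open-flower library 1 (adjusted p = 0.0988); leaving out any 1 ask1 or control bud library, or ask1 open-flower library 2, also ended that call (adjusted p from 0.0515 to 0.2). As a share of the bud level, open flowers kept 7.8% of ASY1 in Col-0, 9.33% in ASK1 WT and 45.6% in ask1, and 15.4%, 15.1% and 40.6% of SYN1. Taken singly, ask1 open-flower libraries 1 and 2 kept 24.3% and 67% of ASY1 and 37.8% and 43.3% of SYN1.

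**Figure D4:**
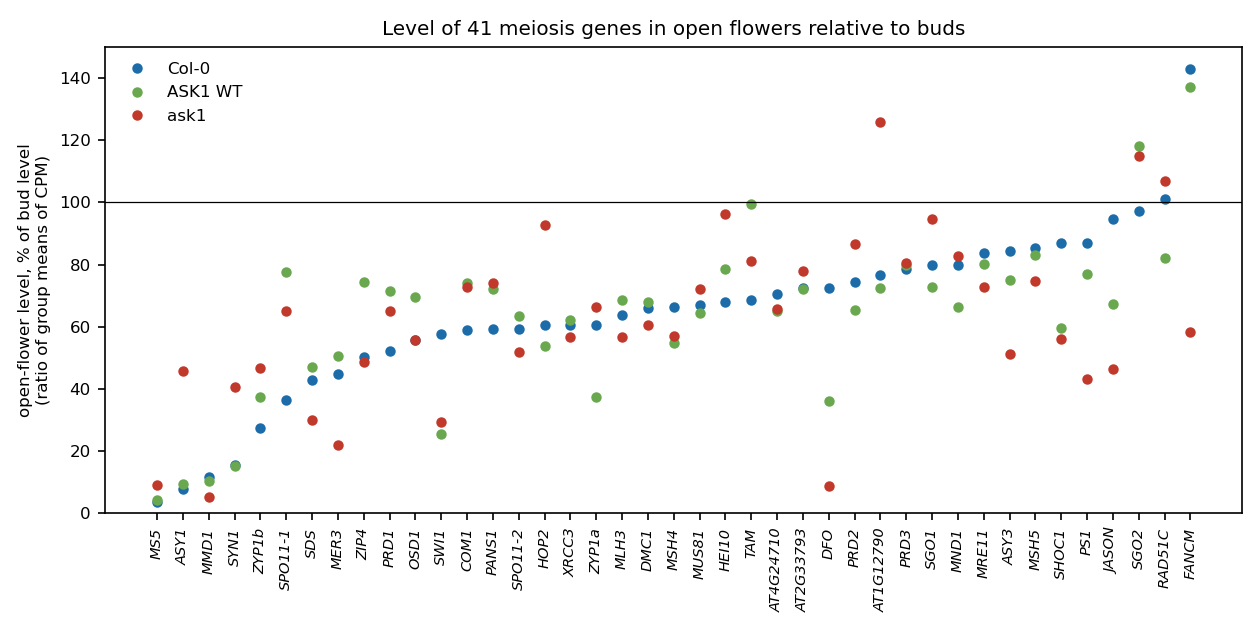
Open-flower level as a percentage of the bud level (ratio of the means of 2 libraries, vertical axis) for 41 of the 44 genes, sorted by Col-0, with 1 point per genotype; the line marks 100%. MS5 keeps 3.74% in Col-0 and FANCM 143%, and ask1 (red) lies above the controls for ASY1 and SYN1 and below them for FANCM.

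SYN1, SDS, MER3, MS5 and MMD1 fell in all 3 genotypes, where 8.75% of all tested genes did, and 0 members rose in all 3, where 11.4% did. SDS changed by -1.22 in Col-0, -1.08 in ASK1 WT and -1.71 in ask1, and MER3 by -1.15, -0.99 and -2.15. Without ask1 open-flower library 1 the ask1 changes were -1.42 for SDS and -1.71 for MER3. Another 8 members fell in 2 genotypes (SWI1, ASY1, ASY3, ZYP1a, ZYP1b, MUS81, OSD1 and JASON), 10 fell in 1, and 21 in none. ZYP1b changed by -1.86 ± 0.42 in Col-0 and -1.43 ± 0.40 in ASK1 WT (edgeR, adjusted p = 0.00483 and 0.0158), and OSD1 by -0.85 ± 0.21 in Col-0 and -0.85 ± 0.20 in ask1 (adjusted p = 0.00796 and 0.0074). The ZYP1b call in Col-0 was lost without Col-0 open-flower library 2 (adjusted p = 0.0525), and that in ASK1 WT without ASK1 WT bud library 2 or either ASK1 WT open-flower library (0.0852 to 0.126). The OSD1 call in Col-0 was lost without Col-0 bud library 1 or either Col-0 open-flower library (adjusted p from 0.0538 to 0.0785), and that in ask1 without ask1 bud library 1 (0.0776). The SDS call was lost in Col-0 without open-flower library 2 (adjusted p = 0.0744) and in ASK1 WT without bud library 2 or open-flower library 2 (0.0645 and 0.113). The MER3 call was lost in Col-0 without any 1 of its 4 libraries (adjusted p from 0.0607 to 0.128), and in ASK1 WT without any 1 of its 4 libraries or either Col-0 open-flower library (0.0553 to 0.193). TAM, which acts beside OSD1, kept 68.6% of its bud level in Col-0, 99.4% in ASK1 WT and 81.1% in ask1 and did not pass. DMC1 kept 66.1%, 67.8% and 60.6% (77.6% and 43.7% in ask1 libraries 1 and 2), and passed in ask1 but not in the controls, a call lost without either ask1 bud library or ask1 open-flower library 2 (edgeR, adjusted p from 0.0705 to 0.0927). The difference of the DMC1 change between ask1 and ASK1 WT was -0.16 on the log2 scale and did not pass (edgeR, adjusted p = 0.789); for DMC1 it was -0.73 without ask1 open-flower library 1 and passed (adjusted p = 0.0411), and 0.20 without library 2 (adjusted p = 0.495). With that library 1 left out DMC1 also passed as lower in open flowers of Col-0 (-0.52, adjusted p = 0.00599) and of ASK1 WT (-0.51, adjusted p = 0.00538). Of the 23 members that fell in at least 1 genotype, 12 had an MSA core and 4 an E2F core in the promoter window, and of the 21 that fell in none, 7 and 3 did.

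At the other end, FANCM and RAD51C were among the members with the highest ratio of open flowers to buds in Col-0. FANCM kept 143% of its bud level in Col-0 and 137% in ASK1 WT but 58.3% in ask1 (36.5% and 80% in its libraries 1 and 2). In both controls every open-flower library of FANCM was above every bud library of the same genotype, and in ask1 both were below. RAD51C, a recombinase paralog that also acts in somatic repair, kept 101% in Col-0, 82% in ASK1 WT and 107% in ask1. RAD51C was at 6.06 and 6.55 CPM in Col-0 buds and at 6.12 and 6.56 CPM in open flowers. It went from 8.11 and 7.5 to 6.79 and 6.01 CPM in ASK1 WT and from 7.96 and 8.53 to 8.03 and 9.6 CPM in ask1. The tissues overlapped for RAD51C in Col-0 and in ask1, and not in ASK1 WT. Neither gene passed between tissues in Col-0 (edgeR, log2 fold changes of 0.52 and 0.01). With ask1 open-flower library 1 left out, which changes the pooled estimate of spread, FANCM passed as higher in open flowers of Col-0 (0.59, adjusted p = 0.0108) and of ASK1 WT (0.52, adjusted p = 0.0194).

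The difference of the ask1 effect between tissues, against ASK1 WT, was tested directly. No member passed under edgeR (0 of 44, where 4.45% of all tested genes were called higher and 2.36% lower); 8 had an unadjusted p under 0.05, and DESeq2 called 1. Among the 8 were SYN1, ASY1, ASY3, ZYP1a, MER3, FANCM and JASON. Of the 8, ASY1 had the largest difference, 2.29 ± 0.75 on the log2 scale (edgeR, adjusted p = 0.0919), then SYN1 with 1.5 ± 0.60 (adjusted p = 0.151) and FANCM with -1.23 ± 0.41 (adjusted p = 0.0948). Among these members ASY1, SYN1 and ZYP1a had a higher ask1 value relative to ASK1 WT in open flowers than in buds, and the other 5 a lower one. The DESeq2 call was FANCM, at -1.28 (adjusted p = 0.0488). Without ask1 open-flower library 1, 1 member passed as higher and 3 as lower, where 4.99% and 9.39% of all genes did: ASY1 (2.72, edgeR, adjusted p = 0.0193), FANCM (-0.89, adjusted p = 0.0469), DMC1 (-0.73, adjusted p = 0.0411) and PANS1 (-0.66, adjusted p = 0.0413). Without library 2, 5 passed as lower and 0 as higher, where 17.3% and 21.1% did; FANCM (-1.92, adjusted p = 0.000312) was among them and ASY1 (1.38, adjusted p = 0.217) was not called. FANCM also passed with the length trend removed (-0.86, adjusted p = 0.0484).

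The controls were compared with each other in the same fit. ASK1 WT against Col-0 gave 0 calls among the members in buds, where 0.320% of all tested genes were called, and 0 in open flowers, where 0.0411% were (edgeR; DESeq2 also called 0 in each). 1 member had an unadjusted p under 0.05 in each tissue, ZYP1a in buds and TAM in open flowers. ZYP1a was 0.57 ± 0.21 higher on the log2 scale in ASK1 WT buds (edgeR, adjusted p = 0.445), and TAM 0.63 ± 0.25 higher in ASK1 WT open flowers (adjusted p = 1).

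A second list of 43 meiosis and recombination genes outside the set was read for comparison. In buds 1 rose and 1 fell against ASK1 WT, where 8.84% and 17.0% of all genes did, and 0 rose and 1 fell against Col-0, where 7.04% and 14.1% did; ASY2, a paralog of ASY1, fell in both (log2 fold change -0.61 and -0.63; edgeR, adjusted p = 0.0137 and 0.0144). ASY2 was at 11.1 and 11.4 CPM in ask1 buds and 15 to 19.5 CPM in control buds, with no overlap. In open flowers 0 of 43 rose and 7 fell against each control, where 14.1% and 12.9% of all genes rose and 15.9% and 14.3% fell. The median log2 fold change of the second list was -0.34 in both, against 0.01 over all genes; without ask1 library 1 it was 0.02 and -0.03, against -0.05 and -0.04, and with the length trend removed -0.02 and -0.09. The list summed to 637 and 1080 CPM in the ask1 libraries and to 1080 to 1120 CPM in the controls. The largest falls shared by both controls were CYCB3;1, a B-type cyclin (-1.67 and -1.56), BRCA1, a repair protein (-1.21 and -1.33), SYN3, a cohesin subunit (-0.84 and -0.94), ASY2 (-0.93 and -0.80) and ATK1, a spindle kinesin (-0.71 and -0.61). CYCB3;1 was at 3.15 and 2.59 CPM in ask1 open flowers and 7.57 to 9.45 CPM in controls. Without ask1 library 1 these 5 genes were still lower, from -1.87 and -1.77 for CYCB3;1 to -0.60 and -0.52 for ATK1. With the length trend removed 6 genes passed against ASK1 WT, 1 higher and 5 lower, and 4 against Col-0. In those fits 34.9% and 31.1% of all genes were called. ASY2 did not pass there (-0.46 and -0.33, edgeR, adjusted p = 0.105 and 0.25).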

How the data were processed

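Gene counts for 12 libraries were used as the authors deposited them, 1 table per library of 33602 genes. Per the submitters' processing notes the tools were Trimmomatic, TopHat2 and HTSeq and the build was TAIR10; versions and the counting strand are not given in the sources used here. Rows for reads outside genes (7.6 to 9.7% of a table) were left out. The members, the gene lists and the motifs were chosen with earlier results of these data known, and nothing is supported by that choice.

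Counts were fitted with edgeR 4.0.16 (quasi-likelihood, robust, TMM scaling, 1 mean per group over all 12 libraries, 6 residual degrees of freedom; R 4.3.3) after a filter of 10 counts by group and 15 in total, and p-values were adjusted by Benjamini-Hochberg over 21890 genes in each of 10 comparisons. The standard error is the log2 fold change divided by the square root of F. DESeq2 1.42.0 served for alternatives, and the scripts were tested on simulated counts. The package limma 3.58.1 was loaded beside edgeR and no limma model was fitted. A count of 3 corresponds to 0.135 to 0.203 CPM, depending on the library, and is the limit that a count of 0 allows. Library pairs of a group differed by more than sampling noise, with a chi-square per degree of freedom from 3.85 to 10.4 and 63.3 in ask1 open flowers. Each library was entered singly in the fit. An excess of this kind cannot show whether the libraries of a pair came from separate plants.

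Values in every library are given for members that passed against both controls, for the 7 members that name the set (SYN1, ASY1, SPO11-1, DMC1, MSH4, TAM and OSD1), for the 4 deepest falls and 4 highest ratios between tissues in Col-0, and for paralogous pairs; 3 members and 1 promoter window are counted but not reported singly here. Of the members, 18 overlap a gene on the opposite strand and 4 on the same strand, and their counts are uncertain to that extent; 24 overlap none. Sequences and gene positions come from the RefSeq TAIR10.1 assembly, read with Python 3.11.15. SPO11-1 and SPO11-2, and SGO1 and SGO2 share 0 identical 100-bp exon windows.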

Additional observations from a re-analysis of the deposited data

How the results depend on the processing

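No paired analysis was possible because the labels give no replicate numbers shared across groups; numbers follow the order of deposit only. Alternatives were size factors of DESeq2 (RLE) in edgeR, DESeq2, no filter, a fit of only the libraries compared, removal of the length trend, a 2-fold minimum, leaving out each library, and leaving out both ask1 bud library 2 and ask1 open-flower library 1. SYN1 in buds passed in all alternatives run, from -2.42 to -1.84 against ASK1 WT and from -2.48 to -1.91 against Col-0. Of the single-gene values, 7498 stayed on the same side of the threshold, 235 lost a call and 150 gained one with the sign kept. In 3 a call stood opposite in sign to the main value, written here as reversed. Values called in neither fit were counted as unchanged whatever their sign, so changes of sign among them are not counted. The reversals were ZYP1b in open flowers against ASK1 WT (-1.18 and 0.61 as the lowest and highest with 1 library left out, without ask1 open-flower library 2 and 1, and 0.03 with all) and PANS1 in the difference between tissues (-0.66 without ask1 open-flower library 1 to 0.45 without library 2, -0.75 with both libraries left out, 0.03 with all).

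Counts of members called are given with the share of all genes called in the same fit. Apart from the ranges with 1 library left out, counts that changed less from the main fit are mostly not listed. With only the libraries compared, they were 4 in buds (36.8%) and 0 in open flowers (10.4%) against ASK1 WT, 0 in open flowers against Col-0 (8.18%), and 18 (49%), 26 (53.8%) and 5 (17%) between tissues in Col-0, ASK1 WT and ask1. With a 2-fold minimum they were 1 in buds (13.7%) and 4 in open flowers (13.1%) against ASK1 WT, and 3 in open flowers against Col-0 (11.5%). Between tissues the 2-fold counts were 7 (22.8%), 8 (21.9%) and 10 (21%) in Col-0, ASK1 WT and ask1. With both libraries left out they were 2 in buds against Col-0 (33.4%) and 5 in the difference between tissues (18.5%), which had 1 with DESeq2 (10.2%) and 1 without the length trend (11.7%). Leaving out 1 library gave 1 to 4 in buds against ASK1 WT (15.1 to 40.7% of all genes), 1 to 3 against Col-0 (11.4 to 37.3%), 3 to 10 (14.4 to 51.8%) and 2 to 9 (12.9 to 50.3%) in open flowers, 0 to 0 for ASK1 WT against Col-0 in either tissue, 3 to 19 (24.9 to 49.2%), 6 to 23 (24.9 to 49.2%) and 5 to 20 (25 to 57.6%) between tissues in Col-0, ASK1 WT and ask1, and 0 to 5 in the difference between tissues (2.17 to 38.4%). Causes of these shifts were not tested. The alternatives of the second list, the shares kept by single ask1 libraries and the tapetum sums without CALS5 were chosen after seeing the data. Members under 10 counts in open flowers limit what could be called there.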
